A study of Mus musculus with 7 samples.

Results

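Replacement histones are histone proteins that cells also make outside DNA replication. Unlike most replication-dependent histone genes, their genes give polyadenylated mRNAs, which methods that count transcript 3′ ends can read, and several of them carry introns. The 8 genes described here were chosen by name: H3f3a and H3f3b, which encode histone H3.3, H2afz and H2afv, which encode the closely related H2A.Z.1 and H2A.Z.2, H2afy for macroH2A1, H2afx for H2AX, H2afj for H2A.J, and H1f0 for the linker histone H1.0. They are 8 of the 55364 genes in the deposited count table. Of the 8, 3 were found under these symbols, and 5 were found through their gene identifiers because the table lists newer symbols (H2az1, H2az2, Macroh2a1, H2ax and H2aj).

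The libraries came from CD4 T cells, gated as CD45+CD3+CD4+, of orthotopic lung tumours of C57BL/6 mice older than 8 weeks. Tamoxifen was given to all mice, and all had loxP sites around I-Ab, the gene of a chain of MHC class II. Control mice (genotype I-AbF/F, 5 libraries) lacked Cre. Cre mice (I-AbF/FCol1a2-cre, 2 libraries) expressed the recombinase from the Col1a2 promoter, a fibroblast promoter, so the sequenced T cells were not the cells in which deletion was intended. The comparison asks whether histone variant transcripts in tumour T cells differ when fibroblasts are targeted for loss of MHC class II.

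H3.3 enters chromatin throughout the cell cycle, through the HIRA complex at active genes and through DAXX and ATRX at repeats and telomeres. H2A.Z flanks the start sites of active genes and is placed there by the SRCAP and EP400-TIP60 remodellers. MacroH2A1 carries a large extra domain and is known from repressed chromatin and the inactive X chromosome. H2AX is phosphorylated near its end when DNA breaks, in lymphocytes also at the breaks of antigen receptor gene rearrangement, and H1.0 accumulates in cells that have stopped dividing.

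The paired genes are shown first at the sequence level, because they encode the same or nearly the same protein and yet are counted apart. Over the coding sequence, 95 of 408 bases differed between H3f3a (chromosome 1) and H3f3b (chromosome 11). These differences fell in 83 of 136 codons, and none of the 83 changed the amino acid. The stretch below spans codons 85 to 94, counted from the start codon, and holds some of the codons by which H3.3 differs from replication-dependent H3. It is shown with Hist1h3a (chromosome 13), a replication-dependent H3 gene, and capitals mark bases that are not the same in all of them. All sequences are from GENCODE M21 transcripts (GRCm38), 5′ to 3′.
H3f3a: ttCcaGagTGcAgcTAtTGGTgcTTtGcag
H3f3b: ttTcaAagTGcAgcCAtCGGTgcCCtTcag
Hist1h3a: ttCcaGagCTcGgcCGtCATGgcTCtGcag

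The H2A.Z genes H2afz (chromosome 3) and H2afv (chromosome 11) differed at 80 of 384 coding bases. Of 73 differing codons, 70 were synonymous and 3 changed the amino acid. Codons 6 to 15 are shown because the last of them is of this latter kind, and capitals mark the bases that differ.
H2afz: gctggaaaGgacTCCggAaaggccaagAcA
H2afv: gctggaaaAgacAGTggGaaggccaagGcT

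H2afx (chromosome 9) is shown by its last codons, 134 to 143, since they hold the serine that is phosphorylated at DNA breaks. Capitals mark the codons of that serine and of the glutamine after it.
H2afx: aagaaggcctcgcaggccTCTCAGgagtac

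Total counts per library lay between 1449739 and 1929899, and a count of 3, the limit that a count of 0 allows, was worth 1.55 to 2.07 CPM, the unit that sets a gene's counts against its whole library. The Cre libraries had no count for 25.01% and 33.6% of the tested genes. Among the Control libraries this was 1.14% in replicate 1 and 12.3% to 16.1% in the others. All 10 T cell markers had counts in every library and summed to 4865 to 6434 CPM over the Control libraries and to 6035 and 4839 CPM with Cre. In Cre replicate 2, Cd3e had 3 counts, against 51 to 405 in Control libraries, and Cd3g had 42, against 69 to 496. Cd2 had 48 there, against 151 to 648, and Lck 821, against 1704 to 3241. The rest of these T cell markers, Cd3d, Cd4 and Trac among them, lay within their Control count ranges in that library. The other marker lists were not all at 0: fibroblast markers summed to 160 to 491 CPM (Control) and 258 and 53.1 CPM (Cre), macrophage markers to 7.37 to 47.4 CPM and then 0 and 4.83 CPM, below the Control range, and CD8 T and NK markers to 0 to 16.8 CPM and then 0. Markers of B cells, neutrophils and epithelium reached at most 2.37 CPM in any library. Of their defining markers, Col1a1 and Col1a2 had counts in every library, Lyz2 had 8 to 54 counts in Control libraries and none with Cre, and Adgre1, Ms4a1 and Ncr1 had none in any library. The part of these cells in the results below was not tested. The series describes the mice as matched for gender, yet counts of the Y-linked gene Ddx3y were not evenly spread over the groups. They were 1, 34, 141, 2 and 0 across the Control replicates and 76 and 89 for Cre. The part of sex in the results below was not tested. All 8 replacement histone genes lie on autosomes. In bulk libraries, fewer cells of a type and less RNA per cell cannot be told apart.

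All 8 genes were detected in all 7 libraries, and none was called different between the groups. By edgeR's quasi-likelihood test with Benjamini-Hochberg adjustment over 9854 tested genes, 0 of the 8 were called (adjusted p = 0.578 to 0.9997), beside 0.0101% of all tested genes. At an unadjusted p under 0.05 the count was also 0 of 8, beside 11.6% of all tested genes (1.41% higher and 10.2% lower in Cre). DESeq2 called 0 of the 8 (lowest adjusted p 0.499), beside 0.417% of genes called higher and 7.23% called lower, and limma voom called 0 of the 8 (lowest adjusted p 0.478), beside 0.0304% higher and 0% lower. By the authors' deposited table, none of the genes had an FDR under 0.05 (lowest 0.756), beside 3.85% of genes with a p-value there. For all 8 the Cre values overlapped the Control range, whereas both Cre libraries lay outside that range on the same side for 15% of tested genes (4.05% above and 10.9% below). Fitted values were higher in Cre for 5 and lower for 3 of the 8, with a median log2 fold change of 0.22, beside a median of −0.39 over all tested genes.

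**Figure D1:**
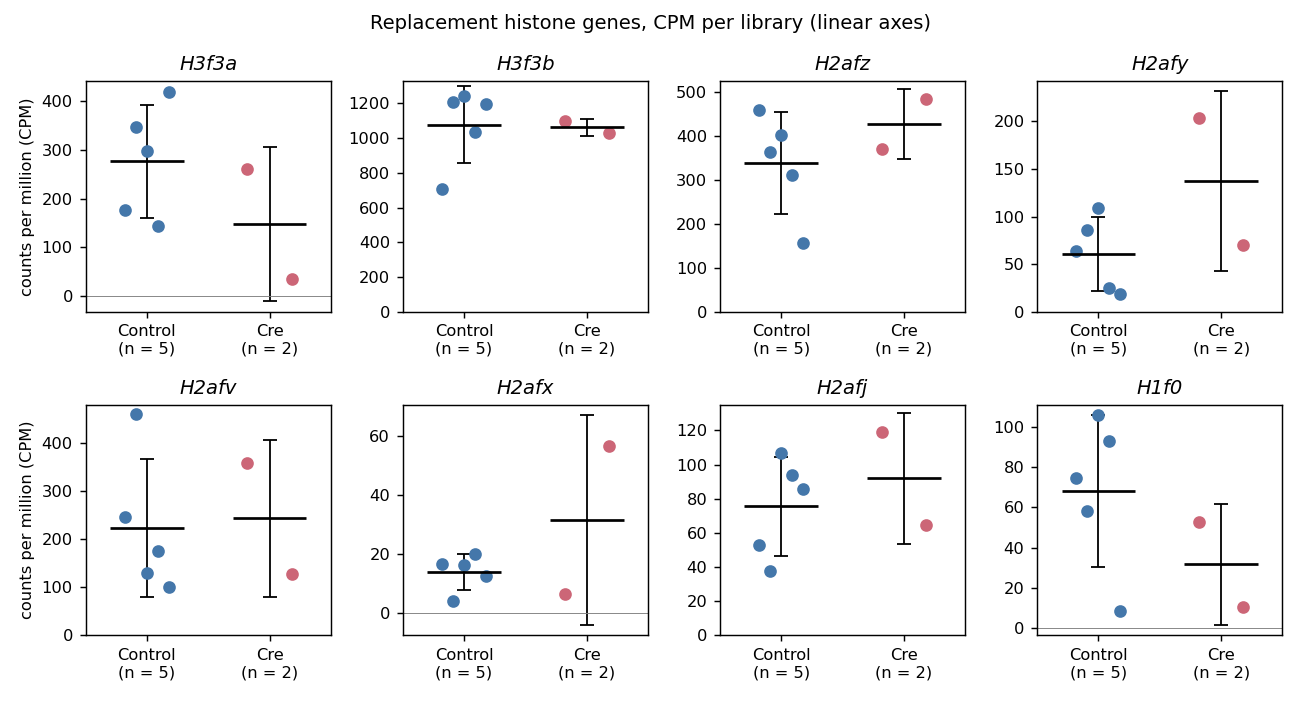
CPM (linear vertical axes) of each replacement histone gene in the 5 Control and 2 Cre libraries. Points are libraries, in replicate order from left to right within a group, long bars are group means and whiskers are ± SD; in every panel at least 1 Cre point lies within the span of the Control points.

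The H3.3 genes come first. In Control replicates 1 to 5, H3f3b (ENSMUSG00000016559) stood at 706, 1207, 1244, 1033 and 1196 CPM, and the Cre replicates gave 1098.5 and 1029 CPM. Control replicate 1 was the low library, and both Cre libraries fell within the Control range, Cre replicate 2 just below the other Control values. The group means were 1077 ± 223 CPM (Control; SD, n = 5) and 1064 ± 49.0 CPM (Cre; n = 2), and the edgeR log2 fold change of Cre against Control was −0.0010 ± 0.31 (SE; adjusted p = 0.9997). Its 95% interval, from −0.68 to 0.68, corresponds to 0.625-fold to 1.60-fold.

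H3f3b was also steady across all 7 libraries, with a coefficient of variation of 17.0%. The 121 tested genes with a mean CPM within 1.5-fold of it had a median coefficient of variation of 32.6%, and 4.96% of them varied less. Its profile over the libraries was most like those of H2-Q7, a non-classical MHC class I gene, Rps27a, a ribosomal protein gene, and Ms4a6b, a membrane protein gene of T cells. Their root mean square difference from it was 0.13, 0.15 and 0.15 on the centred log2 CPM scale, the smallest among 8620 protein-coding genes, and this likeness is a description over 7 libraries.

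H3f3a (ENSMUSG00000060743), the other H3.3 gene, stood at 176, 346, 297, 143 and 420.2 CPM across the Control replicates, against 260.1 and 35.2 CPM with Cre. Cre replicate 2 was lower than every Control library, and Cre replicate 1 lay near the middle of the Control range. The group means were 276 ± 116 CPM (Control) and 148 ± 159 CPM (Cre), with an edgeR log2 fold change of −0.86 ± 0.70 (adjusted p = 0.659). This value rested on Cre replicate 2: without it the log2 fold change was −0.02, and without Cre replicate 1 it was −2.94 (adjusted p = 0.0776), where the lone Cre library is assumed to vary like the Control libraries.

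H3f3a made up 20.0%, 22.3%, 19.3%, 12.1% and 26.0% of the summed counts of the H3.3 genes in Control, 19.1% in Cre replicate 1 and 3.31% in Cre replicate 2. The 51 H3f3a counts among 1543 H3.3 counts in Cre replicate 2 gave a 95% Wilson interval of 2.52% to 4.32%, and the lowest Control share, 246 of 2027 counts, had an interval of 10.8% to 13.6%. Counting error is all that such intervals cover, because without molecular identifiers several reads may stem from a single molecule. The group means, 19.9 ± 5.09% and 11.2 ± 11.2%, differed by −8.71 percentage points (exact two-sided permutation p = 0.143, adjusted 0.286 over 2 shares). With 2 libraries against 5 this test, which counts absolute differences at least as large, cannot go below 0.0476. The difference rested on Cre replicate 2: it was −0.79 points without that library and −16.6 points without Cre replicate 1. It was −3.54 points with each gene's largest region alone and, in an alternative added after seeing the data, −4.28 points without the intronic region of H3f3a described next.

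The H3f3a counts came from 3 regions on the minus strand of chromosome 1 (mm10). Region 1 (180800583 to 180803130) is the 3′ end of the full-length transcripts, with 2248 of its 2548 bases in the annotated 3′ UTR and 249 past the gene's end. Region 2 (180809499 to 180809747) lies wholly in an intron, right after the annotated end of a retained-intron transcript. Region 3 (180809984 to 180810240) covers an internal exon where shorter annotated transcripts end. Of all H3f3a counts, 51.7%, 29.2% and 19.1% came from regions 1, 2 and 3.

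The intronic region accounted for 39.4%, 35.8%, 13.5%, 37.8% and 39.8% of H3f3a counts across the Control replicates and for 15.9% and 0% with Cre. Control replicate 3 and Cre replicate 1 were thus alike, while Cre replicate 2 had no count there among its 51. At the 3′ end alone, H3f3a gave 133, 236, 322, 141 and 269 counts across the Control replicates, against 293 and 42 with Cre, so Cre replicate 2 stood lowest in region 1 as well. With the intronic region left out, an alternative added after seeing the data, the log2 fold change was −0.47 (edgeR adjusted p = 0.869).

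**Figure D2:**
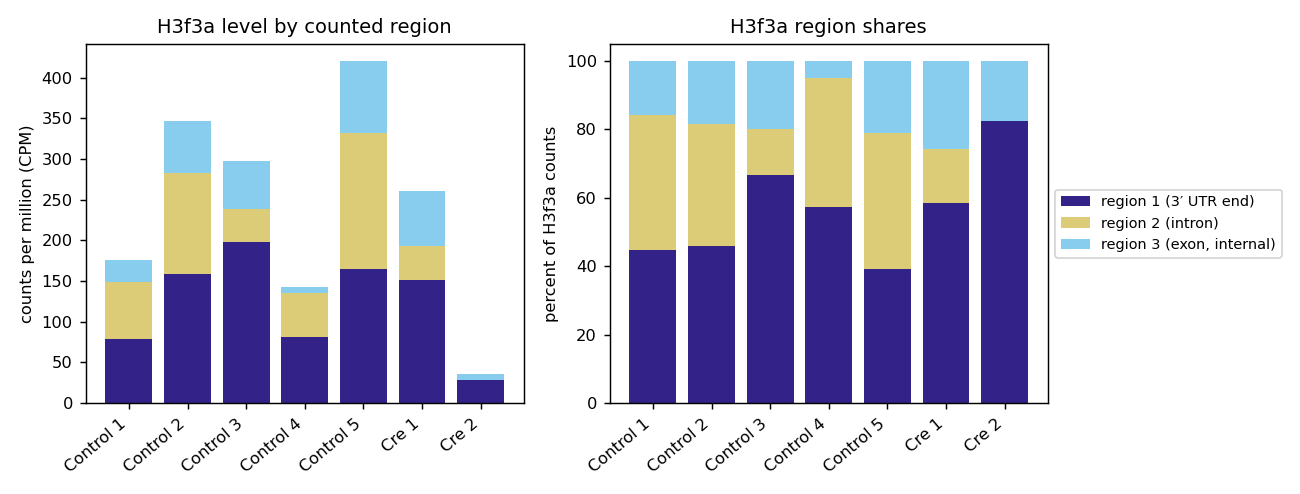
H3f3a in each library, split by the counted region: left, CPM; right, percent of the gene's counts. The intronic region 2 holds 13.5% to 39.8% of the counts in Control libraries, 15.9% in Cre replicate 1 and none in Cre replicate 2.

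The H2A.Z genes come next. H2afz (ENSMUSG00000037894) reached 459.7, 364, 402, 310.3 and 155 CPM across the Control replicates, against 372 and 484 CPM with Cre. Control replicate 5 was the lowest library, and Cre replicate 2 the highest of all. The group means were 338 ± 116 CPM (Control) and 428 ± 79.7 CPM (Cre), with a log2 fold change of 0.33 ± 0.45 (edgeR adjusted p = 0.847; 95% interval −0.66 to 1.31). Nearly all counts, 4165 of 4175, fell in the region at the gene's 3′ end on the plus strand of chromosome 3 (137866386 to 137867171, mm10).

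H2afv (ENSMUSG00000041126) varied widely in Control, with 246, 459, 129, 175 and 101 CPM by replicate, and the Cre replicates gave 358 and 128 CPM. Both Cre libraries lay within the Control range, one in its upper and one in its lower part. Group means were 222 ± 143 CPM (Control) and 243 ± 163 CPM (Cre), and the log2 fold change was 0.13 ± 0.63 (edgeR adjusted p = 0.963). H2afv varied more than most genes of its level: its coefficient of variation over the 7 libraries was 59.2%, and 81.2% of 776 tested genes with a like mean CPM varied less.

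H2afz made up 65.2%, 44.2%, 75.7%, 63.9% and 60.5% of the summed H2A.Z counts across the Control replicates, and 51.0% and 79.1% with Cre. The Cre libraries thus stood at opposite ends, Cre replicate 2 above every Control library and Cre replicate 1 above only Control replicate 2. The group means of 61.9 ± 11.4% and 65.1 ± 19.9% differed by 3.15 percentage points (exact two-sided permutation p = 0.762, adjusted 0.762).

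MacroH2A1 showed the largest positive fitted difference of the 8, which did not pass the test. Control replicates held 64.1, 85.5, 109, 24.9 and 19.0 CPM of H2afy (ENSMUSG00000015937), and the Cre replicates 204 and 70.4 CPM. Cre replicate 1 was far above the highest Control library, and Cre replicate 2 lay inside the Control range. Group means were 60.5 ± 38.6 CPM (Control) and 137 ± 94.6 CPM (Cre), with a log2 fold change of 1.19 ± 0.85 (edgeR adjusted p = 0.578; 95% interval −0.65 to 3.03), and without Cre replicate 1 it was 0.23.

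Of the 982 H2afy counts, 970 came from the 3′ end of the full-length transcripts on the minus strand of chromosome 13 (56073370 to 56074358, mm10). The splice forms macroH2A1.1 and macroH2A1.2 share that end and were not told apart. Cre replicate 2 also had 11 counts in an intronic region (56100640 to 56100888), where the other libraries had none. Xist is the RNA that coats the inactive X chromosome, on which macroH2A is enriched. Its counts were 340, 16, 76, 266 and 476 across the Control replicates and 1 and 86 with Cre. Control replicates 1, 4 and 5, with at most 2 Ddx3y counts each, held 64.1, 24.9 and 19.0 CPM of H2afy. Control replicates 2 and 3, with 34 and 141 Ddx3y counts, held 85.5 and 109 CPM. Cre replicates 1 and 2, with 76 and 89 Ddx3y counts, held 204 and 70.4 CPM. The library with the most H2afy, Cre replicate 1, had the fewest Xist counts, and Control replicate 5, with the least H2afy, had the most. The part of such differences between libraries in the H2afy values was not tested.

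H2afx (ENSMUSG00000049932) was the scarcest of the 8. Control replicates gave 28, 6, 26, 34 and 20 counts, or 16.6, 4.04, 15.99, 19.7 and 12.3 CPM, and the Cre replicates gave 12 and 82 counts, or 6.22 and 56.6 CPM. Cre replicate 2 exceeded every Control library, and Cre replicate 1 exceeded only Control replicate 2. Group means were 13.7 ± 6.02 CPM (Control) and 31.4 ± 35.6 CPM (Cre), and the log2 fold change of 1.16 ± 1.495 (edgeR adjusted p = 0.830) turned to −1.09 without Cre replicate 2. All counts lay in 884 bases of 3′ UTR on the plus strand of chromosome 9 (44335194 to 44336077, mm10). H2afx is known to give both a polyadenylated mRNA and, in dividing cells, a short form that ends at a histone stem-loop, and these forms were not counted apart.

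Marker genes of dividing cells, 11 in all, summed to 212 to 397 CPM over the Control libraries, and the Cre libraries lay below these at 163 and 39.3 CPM. Mki67, a defining marker, had no count with Cre nor for Control replicates 2 and 5, whereas Ccnb1 had 207 counts in Cre replicate 1 and 0 to 4 in every other library. Without Ccnb1 the sum of Cre replicate 1 was 55.4 CPM. The highest H2afx level was in Cre replicate 2, the library with the lowest sum of these markers. Cre replicate 1, whose sum was also below the Control libraries, had 6.22 CPM of H2afx, above only Control replicate 2. The part of dividing cells in the H2afx values was not tested.

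H2afj (ENSMUSG00000060032) encodes an H2A form known from senescent human fibroblasts. Its levels were 52.8, 37.7, 107, 93.9 and 86.0 CPM across the Control replicates and 119 and 64.8 CPM with Cre, so Cre replicate 1 was the highest library and Cre replicate 2 lay inside the Control range. Group means were 75.5 ± 29.1 CPM (Control) and 92.0 ± 38.4 CPM (Cre), with a log2 fold change of 0.31 ± 0.75 (edgeR adjusted p = 0.931). H2afj was steady for its level, with a coefficient of variation of 36.9% where 6.70% of 1777 genes of like mean CPM varied less.

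H1f0 (ENSMUSG00000096210), the linker histone gene, was measured at 74.7, 57.9, 106, 92.8 and 8.60 CPM across the Control replicates and at 52.9 and 10.3 CPM with Cre. A single library in each group, Control replicate 5 with 14 counts and Cre replicate 2 with 15, stood far below the rest. Group means were 68.0 ± 37.8 CPM (Control) and 31.6 ± 30.1 CPM (Cre), and the log2 fold change was −1.09 ± 1.18 (edgeR adjusted p = 0.777). It was −0.33 without Cre replicate 2 and −2.71 without Cre replicate 1.

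**Figure D3:**
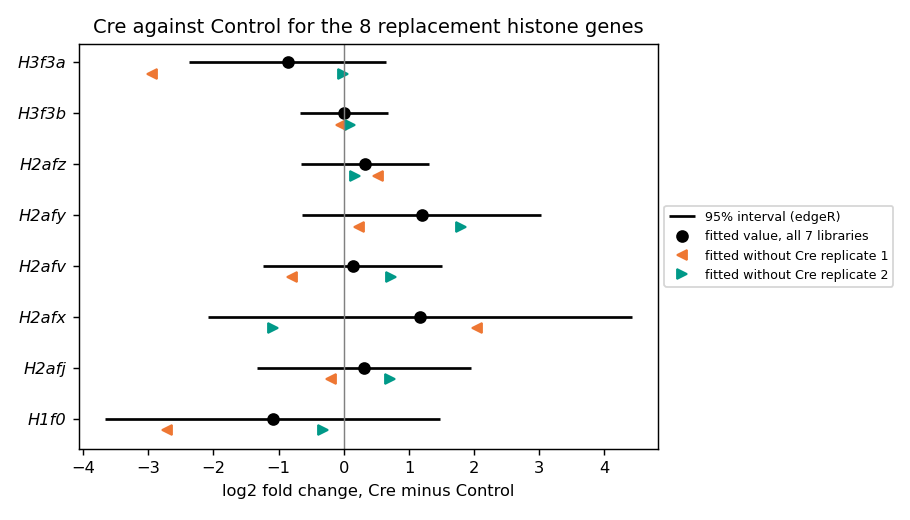
Fitted log2 fold change (Cre minus Control, horizontal axis) of each gene. Black points and bars are the edgeR value and its 95% interval from all 7 libraries, and triangles are the values with 1 Cre library left out; every interval spans 0, and the triangles lie on both sides of 0 for H3f3b, H2afv, H2afx and H2afj.

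Levels of different genes are given per kilobase of counted region, since the regions differ in length. Counts of transcript 3′ ends need not grow with that length, so the order depends on this division. In Control, H3f3b stood highest at 584 ± 121 CPM per kilobase, followed by H2afz at 307 ± 105, H2afv at 159.7 ± 103, H3f3a at 90.5 ± 38.0, H1f0 at 56.7 ± 31.6, H2afj at 56.1 ± 21.6, H2afy at 40.7 ± 26.0 and H2afx at 15.5 ± 6.82. The ranges over the 5 Control libraries overlapped for each pair of neighbours in this order. Per kilobase, H3f3b exceeded H2afz in 4 of the 5 libraries, and H2afz exceeded H2afv in 5 of 5. Without the division, the Control mean of H3f3a (276 CPM) was above that of H2afv (222 CPM). Likewise H2afj (75.5 CPM) was then above H1f0 (68.0 CPM). The 8 genes together made up 2132 ± 335 CPM (Control) and 2174 ± 418 CPM (Cre).

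Near-identical gene copies may limit what the counts of 3 of these genes mean. Processed pseudogenes are copies of mRNAs set into the genome, and H3f3a has many. In GENCODE M21, 40 processed pseudogenes matched the H3f3a transcript at 90% identity or more over at least 200 bases, 3 matched H3f3b and 4 matched H2afz, while H2afv, H2afy and H1f0 had no such match. The copies that H2afx and H2afj matched in this way were mostly replication-dependent H2A genes, with some pseudogenes and a non-coding transcript, and had 63 and 34 counts in all.

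The pseudogene counts were large. H2afz had 4175 counts over the 7 libraries and its 4 pseudogenes had 3988, of which 3877 belonged to Gm8203 (chromosome 6). The annotated Gm8203 transcript was 100% identical to H2afz over 387 aligned bases, but its counts lay in a region of 249 bases. For H3f3a-ps1, H3f3a-ps2 and H3f3c, whose regions were compared with the annotation, 0 bases of the counted region lay in the annotated gene. The identities given here are those of annotated transcripts, and the counted regions were not compared by sequence. In each library the H2afz pseudogenes took 46.5% to 57.0% of the joint counts in Control and 46.3% and 38.8% in Cre. For H3f3a, 19 pseudogenes with counts summed to 1986 beside 2777 for the gene, and for H3f3b 3 summed to 2684 beside 12345, with 2135 of them in Gm6485. The H3f3a pseudogenes took 28.7% to 62.6% of the joint counts in Control, 40.9% in Cre replicate 1 and 71.5% in Cre replicate 2. In Cre replicate 2 the pseudogenes had 128 counts beside 51 for H3f3a, and both counts were the lowest of the 7 libraries. The same pseudogenes had 207 to 411 counts in Control libraries and 348 in Cre replicate 1.

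How the authors assigned reads that match several places is not given in the sources used here. Whether reads of a gene were counted at its copies, or the reverse, is therefore not known. With pseudogene counts added to each gene, an alternative added after seeing the data, the edgeR log2 fold changes were −0.67 for H3f3a, −0.04 for H3f3b and 0.07 for H2afz (adjusted p = 0.614, 0.976 and 0.970).

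**Figure D4:**
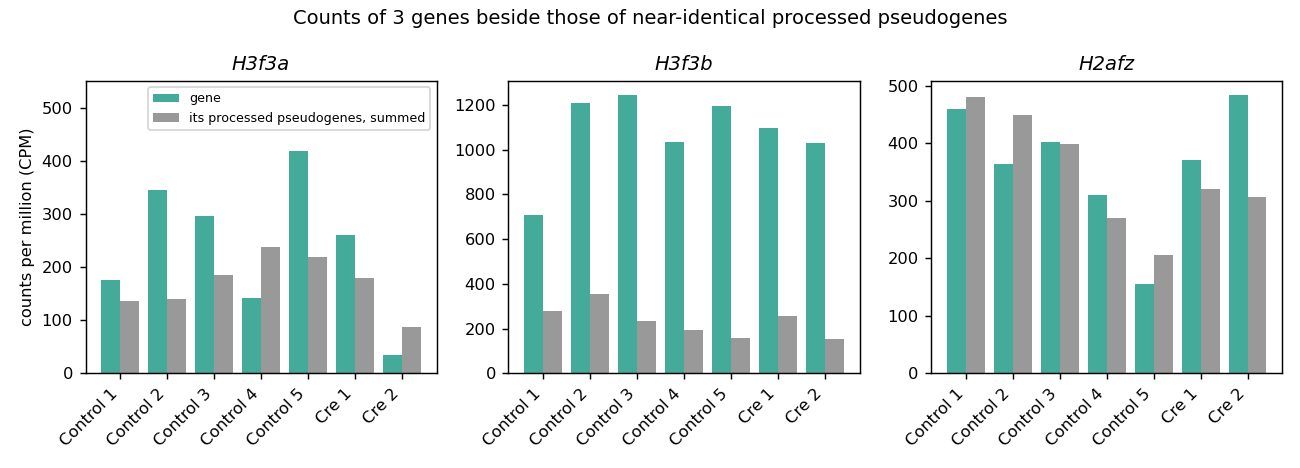
CPM of H3f3a, H3f3b and H2afz in each library (green bars) beside the summed CPM of their near-identical processed pseudogenes (grey bars). The pseudogenes of H2afz exceed the gene in Control replicates 1, 2 and 5, and those of H3f3a exceed it in Control replicate 4 and Cre replicate 2.

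Genes that place, remove or modify these histones gave no call by edgeR over all genes. Of 9 H3.3 chaperone genes 8 were tested, of which 6 had fitted values above and 2 below 0 (median log2 fold change 0.48). All 9 genes summed to 1030.3 to 1311 CPM over the Control libraries, and the Cre libraries lay above these at 1495 and 1489 CPM. Daxx, the H3.3 chaperone of repeats and telomeres, gave 149, 382, 334, 203 and 238 counts across the Control replicates, against 480 and 795 with Cre, and its log2 fold change was 1.30 ± 0.49 (edgeR unadjusted p = 0.0201, adjusted p = 0.422). On the CPM scale Daxx was higher in Cre replicate 2 than in any Control library, and Cre replicate 1 lay within the Control range. Ubn2, a subunit of the HIRA complex, averaged 97.5 ± 65.6 CPM (Control) and 198 ± 1.61 CPM (Cre), and the Cre values lay above the whole Control range (edgeR adjusted p = 0.566). Its paralog Ubn1 went the other way in its fitted value, with 461 ± 170.04 CPM (Control) and 316 ± 64.1 CPM (Cre; edgeR adjusted p = 0.676).

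Of 21 tested genes for H2A.Z placement and removal, 14 had higher and 7 lower fitted values (median 0.43), and the members with the smallest p were lower in Cre. Srcap, the ATPase that exchanges H2A for H2A.Z, gave 76, 28, 152, 85 and 72 counts across the Control replicates, against 4 and 1 with Cre, with a log2 fold change of −5.07 ± 1.68 (edgeR adjusted p = 0.367). Actr6, an actin-related subunit of the same complex, had 5 to 52 counts in Control libraries and none with Cre. Dmap1, shared with the TIP60 complex, averaged 14.5 ± 13.4 CPM in Control libraries and had 0 and 2 counts with Cre (edgeR adjusted p = 0.514). DESeq2 called 2 of the 21 lower, Srcap and Actr6 (adjusted p = 0.0023 and 0.0488), a share of 9.52% beside the 7.23% of all genes that it called lower.

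General histone chaperones included 13 tested genes, 8 with higher and 5 with lower fitted values (median 0.37), and the list summed to 1621 to 2558 CPM over the Control libraries and to 2747 and 3487 CPM with Cre, above that range. Spty2d1, an H3-H4 chaperone of transcription, gave 80, 31, 127, 130 and 49 counts across the Control replicates and none with Cre. It was not called by edgeR (adjusted p = 0.277) and was called by DESeq2 (adjusted p = 0.0003), as 1 of 13, or 7.69%. Nap1l1, a chaperone of H2A-H2B, averaged 199.8 ± 106 CPM (Control) and 383 ± 94.5 CPM (Cre), and Rbbp7, a histone-binding subunit of several complexes, had 214 to 395 counts in Control libraries and 268 and 961 with Cre (edgeR adjusted p = 0.474 and 0.429).

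Of 13 genes that phosphorylate or read H2AX, 7 had higher and 6 lower fitted values (median 0.02). Their kinase Prkdc had 0 to 28 counts in Control libraries and 2 and 0 with Cre, Baz1b, a kinase of a second H2AX site, averaged 121 ± 23.9 CPM (Control) and 157 ± 10.6 CPM (Cre), and the phosphatase subunit Ppp4c averaged 18.2 ± 16.4 CPM (Control) and 34.5 ± 27.4 CPM (Cre; edgeR adjusted p = 0.630, 0.843 and 0.878). Of 8 genes for processing histone mRNA, 3 had higher and 5 lower fitted values (median −0.12). Slbp, which binds the stem-loop of replication-dependent histone mRNAs, had 3 counts in Cre replicate 1 and 199 in Cre replicate 2, against 4 to 36 in Control, and the cleavage factor Cpsf2 averaged 93.6 ± 36.5 CPM (Control) and 216 ± 38.6 CPM (Cre), with the Cre values above the whole Control range (edgeR adjusted p = 0.439 and 0.429). Lsm10 of the U7 particle had 3 to 71 counts in Control libraries and 0 and 1 with Cre (edgeR adjusted p = 0.429).

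Other histone genes were scarce. Of 11 further replacement histone genes and copies, 2 had any count, Cenpa and H3f3c. In this list H3f3c and H2afy3 are annotated as processed pseudogenes, and H3f3c is also among the H3f3a pseudogenes above. Cenpa, the centromeric H3, gave 65, 105, 79, 210 and 71 counts across the Control replicates, against 2 and 57 with Cre, with a log2 fold change of −1.70 ± 1.34 (edgeR adjusted p = 0.647). Of 70 replication-dependent histone genes, 36 had a count and 7 were tested, and 12 of the 70 had a count in a Cre library. They summed to 186 to 258 CPM over the Control libraries and to 151 and 184 CPM with Cre, the latter value just under that range. The 7 had a median log2 fold change of −0.25, with 2 higher and 5 lower fitted values. Hist2h2be, an H2B gene, had 0 to 121 counts in Control libraries and none with Cre (adjusted p = 0.422 by edgeR and 0.0391 by DESeq2). DESeq2 gave 4 genes of this list an adjusted p and called 1 lower, or 25%, beside 7.23% of all genes. Hist1h2bc, another H2B gene, had 0 to 37 counts and none, and the H4 gene Hist1h4n had 0 to 44 counts and then 0 and 4. Their mRNAs mostly lack a poly(A) tail, so their level here need not follow that of the whole mRNA pool.

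**Figure D5:**
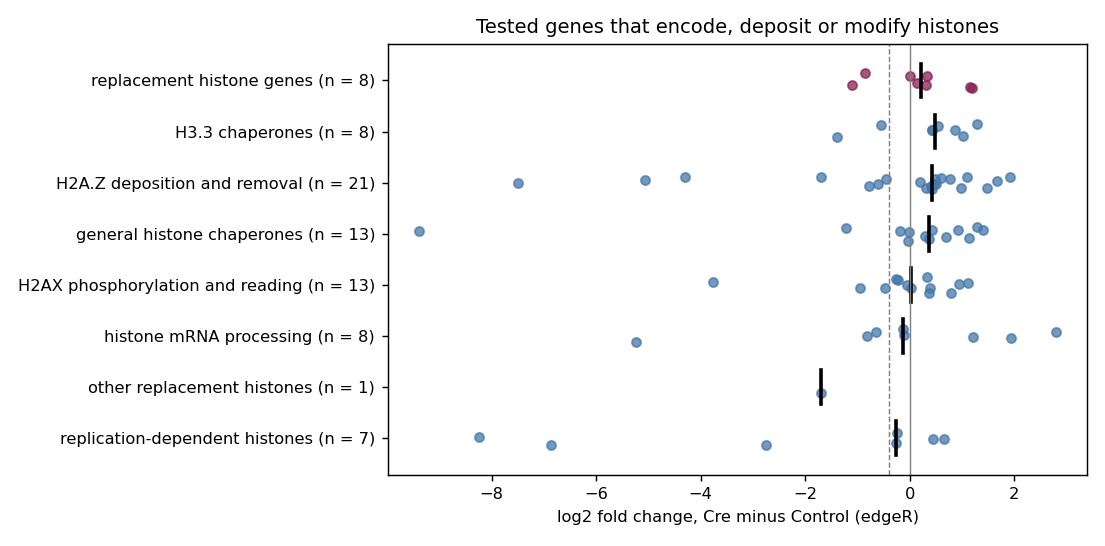
Fitted log2 fold change (Cre minus Control, edgeR) of each tested gene in the 8 replacement histone genes and the 7 related lists. Points are genes with random vertical offset, black ticks are medians, and the dashed line is the median of all tested genes at −0.39; the 8 genes lie between −1.09 and 1.19, and the values of genes with no count in Cre depend on the prior count of the fit.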

How the data were processed

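Transcript 3′ ends were measured in sorted intratumoral CD4 T cells. The deposited table holds raw counts per 3′ region, as whole numbers for 116000 regions of 55364 genes, per the file headers. Per the submitters' processing notes, the tools included HISAT2 2.1.0, FastQC 0.11.8 and DESeq2, and the build was mm10; how regions were counted, and whether by strand, is not given in the sources. The authors' deposited comparison gives DESeq2 p-values, a linear ratio (fold) and a log2 fold change per gene, and each gene's GC content as a percent, which was not used, per the file headers.

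Regions were summed per gene. The 8 genes, the related lists, the tests and the alternatives were chosen with earlier results of these data known. Counts were tested with edgeR 4.0.16 in R 4.3.3 (quasi-likelihood F-test, TMM, robust dispersions, minimum count 10 and minimum total 15, group as the only term, Benjamini-Hochberg, threshold 0.05), and the script was checked on simulated data. The SE was taken from the F statistic. DESeq2 1.42.0 and limma 3.58.1 (voom) were alternatives, beside other scalings, filters, the largest region alone, a replicate block and leaving out each library. Shares were tested by exact permutation over libraries, two-sided. The series names the libraries biological replicates. All genes of the set were named, and of each related list up to 3 tested genes of smallest p. Gene copies were found with BLAST at 90% identity over 200 bases, and regions were placed with GENCODE M21, which is on the build of the files. Coordinates count from 1.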

Additional observations from a re-analysis of the deposited data

Results flagged for a closer look

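The share of the intronic region in the H3f3a counts was 13.5% in Control replicate 3, far below the other Control libraries, which lay between 35.8% and 39.8%. Such a gap to the nearest library, relative to the range of the 5, was looked for in 21 quantities over the Control libraries, and 1 was found; about 1 in 20 such groups shows one by chance.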

How the results depend on the processing

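The count of 0 called among the 8 genes held under every alternative run. Of 124 single-gene values under 17 alternatives, 109 kept the direction of the reported value and 15 turned, none with a call. H3f3b, at −0.0010 as reported, was 0.088 with DESeq2 size factors and by DESeq2's test, 0.098 without a filter, 0.013 with a stricter filter (10 counts in 5 libraries), 0.022 by limma voom and 0.16 with the replicate block, and lay between −0.084 and 0.089 with each library left out. H2afv was −0.69 with the replicate block. With each library left out it lay between −0.79 and 0.73, H2afx between −1.09 and 2.04 and H2afj between −0.20 and 0.72. The H2afz share difference was −0.82 points with pseudogene counts added and lay between −10.9 and 17.2 points with each library left out. The cause of these turns was not tested.

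Over all tested genes, 0 higher and 1 lower as reported became 15 and 28 without a filter, 35 and 607 by DESeq2's test, and 3 and 0 by limma voom; 5 were lower with the replicate block, and with each library left out 0 to 17 were higher and 1 to 202 lower, both upper ends without Cre replicate 1. Of the related lists, DESeq2's test called 4 of 67 genes with an adjusted p lower (Srcap, Actr6, Spty2d1 and Hist2h2be), or 5.97% beside 7.23% of all genes, and edgeR 0. Deviations from the group mean had correlations of 0.0030 and 0.0020 over genes for libraries that share a replicate number. With 2 Cre libraries these deviations mirror each other, so they cannot decide whether the numbers mark pairs. The numbers were not taken as pairs in the main test. Scaling by DESeq2 size factors or upper quartiles moved the median of all genes from −0.39 to −0.29 or −0.49. H2afx, with 6 to 82 counts, is the gene most limited by depth.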
